A study of Mus musculus with 6 samples.

Results

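The genes examined here encode the enzymes of pyruvate oxidation and the citric acid cycle, from the import of pyruvate into mitochondria to the regeneration of oxaloacetate, together with the kinases and phosphatases that switch pyruvate dehydrogenase off and on and the mitochondrial enzymes that make NADPH. They were chosen as 32 gene symbols and were found in 33 of the 55491 rows of the expression table, since *Nnt* has 2 Ensembl entries. All 33 rows were among the 32664 rows with at least 1 count, and the lowest count of any of them in any library was 137. Bulk RNA-seq was performed on IWAT, the inguinal white adipose tissue, of 3 Ebf2+/+ and 3 Ebf2 E165X/+ male mice aged 4 weeks, with 1 library per mouse. E165X is a premature stop codon in *Ebf2*, which encodes a transcription factor of adipocytes and their progenitors. It was introduced into the germline, so that every cell of the heterozygous mice carried it. Founders were made by CRISPR/Cas9 editing of B6SJLF1 zygotes and bred to C57BL/6J, the strain named in the sample labels, and no treatment is named for either genotype. Total counts ran from 106820505 to 135039488 per library. Levels are given as CPM, the counts scaled to library size by the TMM method of edgeR, in the order mouse 1, mouse 2, mouse 3 of each genotype, and a negative log2 fold change means a lower level in Ebf2 E165X/+ mice (SE from the edgeR fit).

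Pyruvate, the end product of glycolysis, enters mitochondria through the mitochondrial pyruvate carrier and is converted to acetyl-CoA by the pyruvate dehydrogenase complex. Acetyl-CoA joins oxaloacetate to form citrate, and the cycle then releases carbon dioxide and passes electrons to NADH and FADH2, which feed the respiratory chain. In white adipocytes citrate also leaves the mitochondrion as the source of cytosolic acetyl-CoA for fatty acid synthesis, while brown and beige adipocytes and muscle, which are rich in mitochondria, oxidize much of it.

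*Ebf2* itself was at 38.3, 41.3, and 37.2 CPM in Ebf2+/+ mice and at 22.8, 22.9, and 21.1 CPM in Ebf2 E165X/+ mice. The genotypes did not overlap, and the order of the levels follows the labels (log2 fold change −0.81, SE 0.0762, edgeR adjusted *P* = 0.0596, DESeq2 adjusted *P* = 1.23e-13). Its paralogs *Ebf1* and *Ebf3* had log2 fold changes of −0.02 and −0.21, with an edgeR adjusted *P* of 0.966 and 0.783.

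Most members had a lower mean level in the IWAT of Ebf2 E165X/+ mice, by a modest amount. Of the 33 rows, 28 had a negative log2 fold change, with a median of −0.40 over the 33, against 0.01 over all 32664 genes tested and 0.03 over the 18905 genes whose lowest library had 10 counts or more. No member passed an adjusted *P* of 0.05 in edgeR's quasi-likelihood test, which called 3 genes of all those tested (0.00918%). At an unadjusted *P* below 0.05, 19 members were lower and 0 were higher, against 3.09% and 1.68% of all genes. limma-voom also called 0 members (and 0.0122% of all genes), whereas DESeq2 called 4, *Pdp2*, *Sdha*, *Idh3b*, and *Dlst*, all lower, where it called 1.07% of the genes with an adjusted *P* as lower. On simulated counts DESeq2, and edgeR to a lesser extent, made more false calls than the threshold allows. In 15 rows every Ebf2 E165X/+ mouse was below every Ebf2+/+ mouse, against 5.75% of all genes and 6.78% of those 18905. In 0 rows was every Ebf2 E165X/+ mouse above every Ebf2+/+ mouse, against 5.09% of all genes. The edgeR adjusted *P* was 0.783 for 29 of the 33 rows and is given below for the other 4, and the DESeq2 adjusted *P* of the members not called ran from 0.0753 to 0.992. Transcripts of the mitochondrial genome were at 8.24%, 9.63%, and 8.11% of all counts in Ebf2+/+ mice and 7.14%, 6.14%, and 6.87% in Ebf2 E165X/+ mice, so that the genotypes did not overlap, while the order of the mice within a genotype was not that of the members' share of all counts (0.771%, 0.704%, and 0.667% against 0.521%, 0.516%, and 0.598%). Whether a difference in mitochondrial content or RNA quality bears on the members was not tested. The members are largely subunits of shared complexes measured in the same 6 libraries, so that they are not independent of each other.

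**Figure D1:**
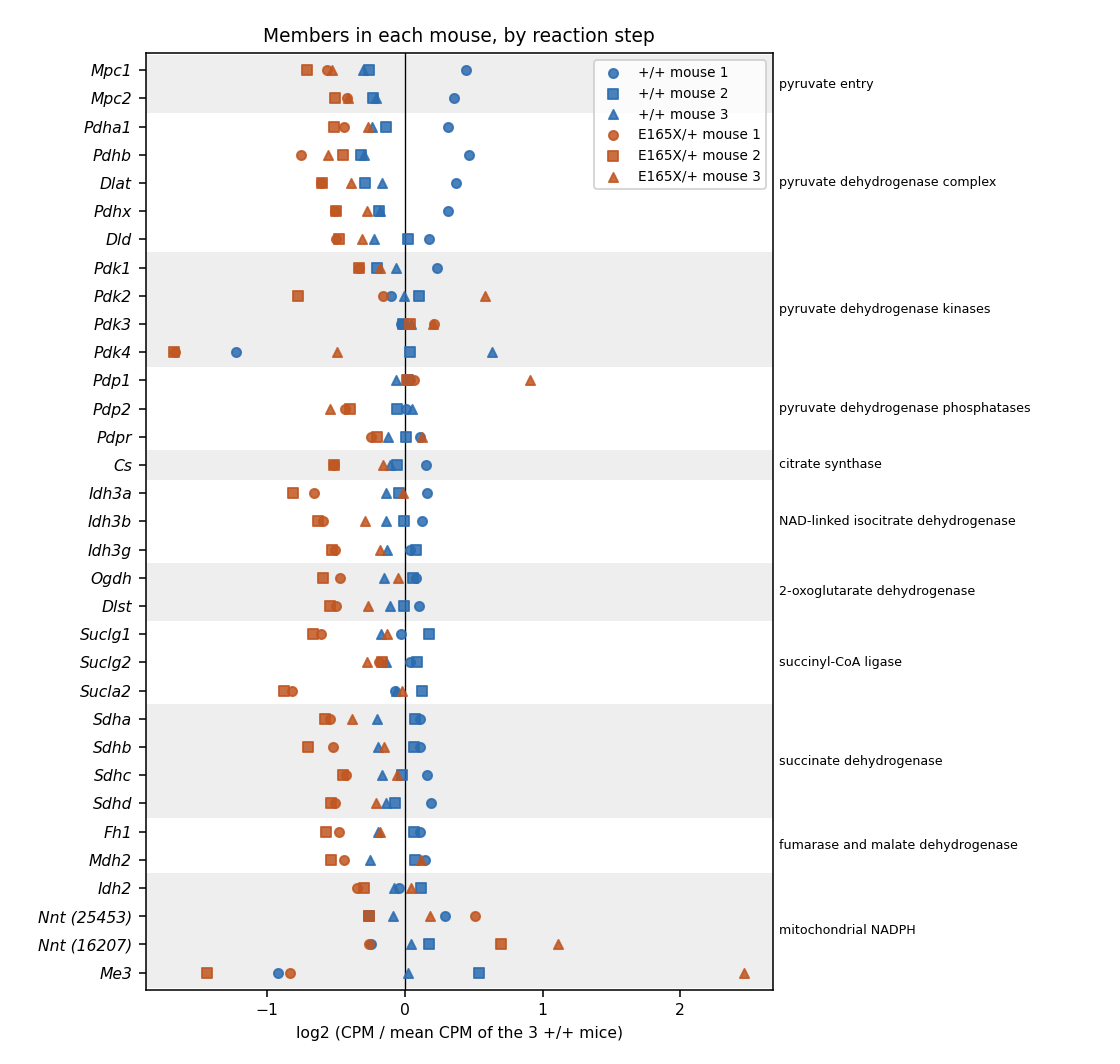
Level of each member in each mouse, as the log2 ratio of its CPM to the mean CPM of the 3 Ebf2+/+ mice (x axis), by reaction step (y axis); each symbol is 1 mouse, and both *Nnt* entries are shown with the last digits of their identifiers. Blue circles (Ebf2+/+ mouse 1) lie far to the right in the upper 6 rows, and orange triangles (Ebf2 E165X/+ mouse 3) lie to the right of the other orange symbols in 28 of 33 rows.

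The counts and the median of the members depended on which mouse was left out. Ebf2 E165X/+ mouse 3 had the highest level of its genotype in 28 of 33 rows, with a median ratio of 1.26 to the mean of the other 2 mice. Without it, 28 rows were lower at an unadjusted *P* below 0.05, against 3.54% of all genes, 28 rows lay below every Ebf2+/+ mouse, against 10.5%, and the median log2 fold change was −0.51. Without Ebf2 E165X/+ mouse 1 or mouse 2, which had the lower levels, 8 members were lower at that *P* in each case, against 3.31% and 2.47% of all genes. Ebf2+/+ mouse 1 stood high in the first steps, and without it 14 members were lower at that *P*, against 2.24% of all genes, with a median of −0.32. Leaving out Ebf2+/+ mouse 2 also gave 14, against 2.86%, with a median of −0.42. Leaving out mouse 3 of that genotype gave 20, against 3.39%, with a median of −0.49. In each of these fits edgeR called 0 members.

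**Figure D2:**
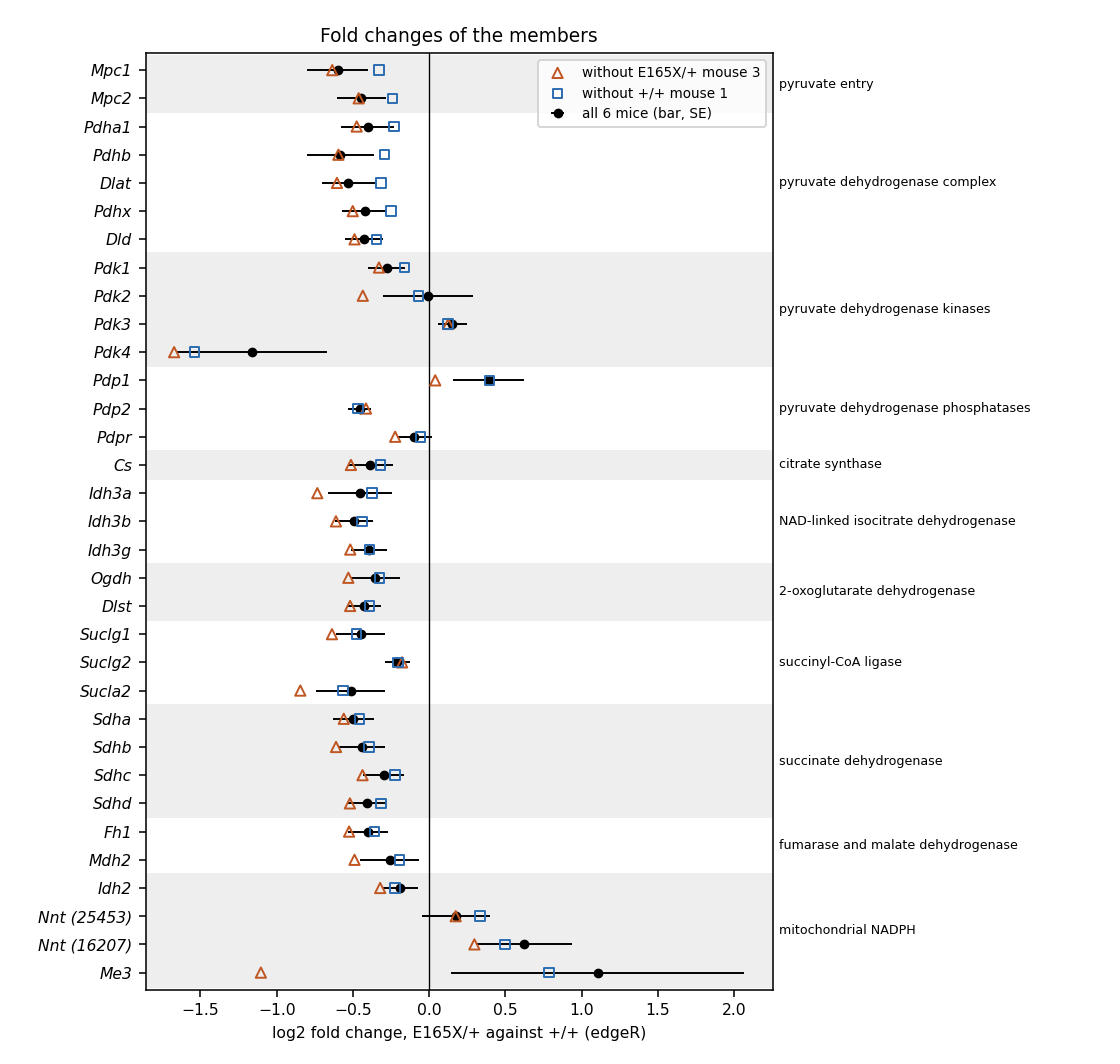
Log2 fold changes of the members in Ebf2 E165X/+ against Ebf2+/+ mice (x axis, edgeR) by reaction step (y axis), with all 6 mice (filled circles, bars are SE), without Ebf2 E165X/+ mouse 3 (triangles), and without Ebf2+/+ mouse 1 (squares). Squares lie closer to 0 in pyruvate entry and the complex, triangles lie further below 0 in the cycle enzymes other than *Suclg2*, and *Me3* lies on the other side of 0 without Ebf2 E165X/+ mouse 3.

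Promoter sequences are shown for 3 members, *Pdp2*, which had the smallest edgeR adjusted *P* of all members, and *Sdhd* and *Sucla2*, which hold a match to the motif of the estrogen-related receptors and of the EBF factors, respectively. They span the 250 bases before and 50 bases after a start site of RefSeq in the build GRCm38.p6, on both strands of which 5 motifs were sought. In the order 5′ to 3′, with the match in capitals, they are chr8:104591222-104591521 on the plus strand for *Pdp2*, which held none of the 5, chr9:50603800-50604099 on the minus strand for *Sdhd*, and chr14:73552536-73552835 on the plus strand for *Sucla2*.
Pdp2: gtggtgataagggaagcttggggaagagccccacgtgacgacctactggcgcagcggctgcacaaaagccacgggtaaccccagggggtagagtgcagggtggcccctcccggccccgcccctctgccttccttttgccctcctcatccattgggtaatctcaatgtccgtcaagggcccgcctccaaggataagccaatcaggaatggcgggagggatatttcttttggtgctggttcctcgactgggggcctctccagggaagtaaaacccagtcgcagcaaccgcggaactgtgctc
Sdhd: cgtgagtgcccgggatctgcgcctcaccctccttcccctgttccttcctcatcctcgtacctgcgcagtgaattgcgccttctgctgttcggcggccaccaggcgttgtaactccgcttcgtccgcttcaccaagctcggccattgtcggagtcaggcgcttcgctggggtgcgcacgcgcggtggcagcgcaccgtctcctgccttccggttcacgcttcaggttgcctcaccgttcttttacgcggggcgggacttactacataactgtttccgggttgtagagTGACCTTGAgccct
Sucla2: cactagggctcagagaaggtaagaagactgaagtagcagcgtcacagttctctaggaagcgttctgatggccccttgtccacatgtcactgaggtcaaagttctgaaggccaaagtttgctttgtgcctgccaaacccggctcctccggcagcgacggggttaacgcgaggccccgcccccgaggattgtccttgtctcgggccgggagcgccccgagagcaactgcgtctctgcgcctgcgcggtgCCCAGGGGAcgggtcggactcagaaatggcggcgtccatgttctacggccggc
The match in *Sdhd* lies on the opposite strand and begins 36 bases downstream of the start site, and that in *Sucla2* begins 3 bases upstream of it. The table held promoters for 28 of the 32 genes, 36 in all. The estrogen-related receptor motif, sought as TCAAGGTCA, was in 2.78% of the members' promoters, that of *Sdhd* alone, and in 0.423% of all 32851 promoters. The EBF motif, sought as CCCNNGGGA, was in 2.78% of the members' promoters and in 6.56% of all. The motif of NRF1, TGCGCATGC, was in 5.56% (2 start sites of *Ogdh*) and 1.52%, that of GABPA, CCGGAAGTG, in 2.78% (*Dlst*) and 2.03%, and that of YY1, AAGATGGCG, in 2.78% (*Idh3g*) and 1.4%. Each motif was found in a different gene, so that no match of a motif overlaps that of another, and a match of letters is a description of the sequence, not of binding.

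Transcripts of both genes of pyruvate entry were lower in every Ebf2 E165X/+ mouse than in any Ebf2+/+ mouse, as in 5.75% of all genes, and neither gene was called by edgeR or DESeq2. *Mpc1* and *Mpc2* encode the subunits of the mitochondrial pyruvate carrier. *Mpc1* was at 320.1, 197, and 191 CPM in Ebf2+/+ mice and at 159, 144, and 164 CPM in Ebf2 E165X/+ mice (log2 fold change −0.60, SE 0.2). *Mpc2* was at 168, 111, and 113 against 97.5, 92.2, and 98.3 CPM (−0.45, SE 0.159). Neither gene overlapped between the genotypes, and in both Ebf2+/+ mouse 1 was far above the other 2 Ebf2+/+ mice. Without that mouse the log2 fold changes were −0.33 and −0.24.

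In all 5 genes of the pyruvate dehydrogenase complex every Ebf2 E165X/+ mouse was likewise below every Ebf2+/+ mouse, against 5.75% of all genes, and neither edgeR nor DESeq2 called any of them. *Pdha1* and *Pdhb* encode the subunits that decarboxylate pyruvate, *Dlat* the acetyltransferase core, *Pdhx* the protein that binds dihydrolipoamide dehydrogenase to the core, and *Dld* that dehydrogenase, which the 2-oxoglutarate dehydrogenase complex shares. *Pdha1* was at 966, 706, and 657 CPM against 573, 544, and 645 CPM (−0.40, SE 0.173). *Pdhb* was at 489, 284, and 289 against 209, 259, and 240.2 CPM (−0.58, SE 0.221). *Dlat* was at 326, 206, and 225 against 166, 166, and 193 CPM (−0.53, SE 0.177). In these 3 genes too the gap between the genotypes was narrow beside the distance of Ebf2+/+ mouse 1 from the other 2 Ebf2+/+ mice. *Pdhx* was at 63.3 ± 13.2 against 47.3 ± 4.41 CPM (SD, n = 3 each; −0.42, SE 0.147). *Dld* was at 350.4, 316, and 265 against 219, 223, and 251 CPM (−0.43, SE 0.126). Over these 5 genes and the 2 of pyruvate entry, Ebf2+/+ mouse 1 was at 1.21 to 1.71 times the mean of the other 2 Ebf2+/+ mice. It was the highest of all mice in all 7. Without it, the log2 fold changes were −0.23 for *Pdha1*, −0.29 for *Pdhb*, −0.32 for *Dlat*, −0.25 for *Pdhx*, and −0.35 for *Dld*.

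The kinases *Pdk1* to *Pdk4*, which phosphorylate and inactivate the complex, did not share an order. *Pdk4*, the isoform known to be induced by fasting and fatty acids, was at 134, 323, and 486 CPM in Ebf2+/+ mice and at 98.7, 98.4, and 223 CPM in Ebf2 E165X/+ mice (−1.17, SE 0.493). It had the lowest fold change of all members, but Ebf2+/+ mouse 1 was below Ebf2 E165X/+ mouse 3. With single mice left out, it ranged from −1.67 without Ebf2 E165X/+ mouse 3 to −0.73 without Ebf2+/+ mouse 3. Ebf2+/+ mouse 1, lowest of its genotype in *Pdk4*, was the highest in the 7 genes of pyruvate entry and the complex. *Pdk1* was at 133, 98.3, and 108 against 89.9, 90, and 99.5 CPM (−0.28, SE 0.119), with an overlap of 1 mouse, and its log2 fold change was −0.16 without Ebf2+/+ mouse 1. *Pdk2* was at 81.6, 94.1, and 87 against 78.3, 51.1, and 131 CPM, so that the Ebf2 E165X/+ mice lay on both sides of the others (−0.01, SE 0.296, edgeR adjusted *P* = 0.995). Without Ebf2 E165X/+ mouse 3 its log2 fold change was −0.44, and without mouse 2 of that genotype it was 0.26. *Pdk3*, a gene of the X chromosome like *Pdha1* and *Idh3g*, was at 12.2 ± 0.309 against 13.5 ± 0.893 CPM (SD, n = 3 each; 0.15, SE 0.0964).

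Of the phosphatases, which reactivate the complex, DESeq2 called *Pdp2* as lower, and edgeR called none. *Pdp2*, whose promoter is printed above, was at 33.6, 32.1, and 34.6 CPM in Ebf2+/+ mice and at 24.8, 25.4, and 23 CPM in Ebf2 E165X/+ mice. The mice of a genotype lay within 3 CPM of each other and the genotypes were separated by more than that. Its log2 fold change of −0.46 (SE 0.0741) had the smallest edgeR adjusted *P* of all members, 0.375, and a DESeq2 adjusted *P* of 0.000153. It ranged from −0.50 to −0.41 with single mice left out. *Pdp1*, the isoform activated by calcium, was at 16.4, 16.2, and 15.3 against 16.7, 16.1, and 30 CPM (0.39, SE 0.231). Without Ebf2 E165X/+ mouse 3 its log2 fold change was 0.04. *Pdpr*, the regulatory subunit of the phosphatase, was at 63.3, 58.9, and 53.8 against 49.6, 51, and 63.8 CPM (−0.10, SE 0.114, edgeR adjusted *P* = 0.81), and with single mice left out its log2 fold change ranged from −0.22 without Ebf2 E165X/+ mouse 3 to −0.03 without mouse 1 of that genotype.

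**Figure D3:**
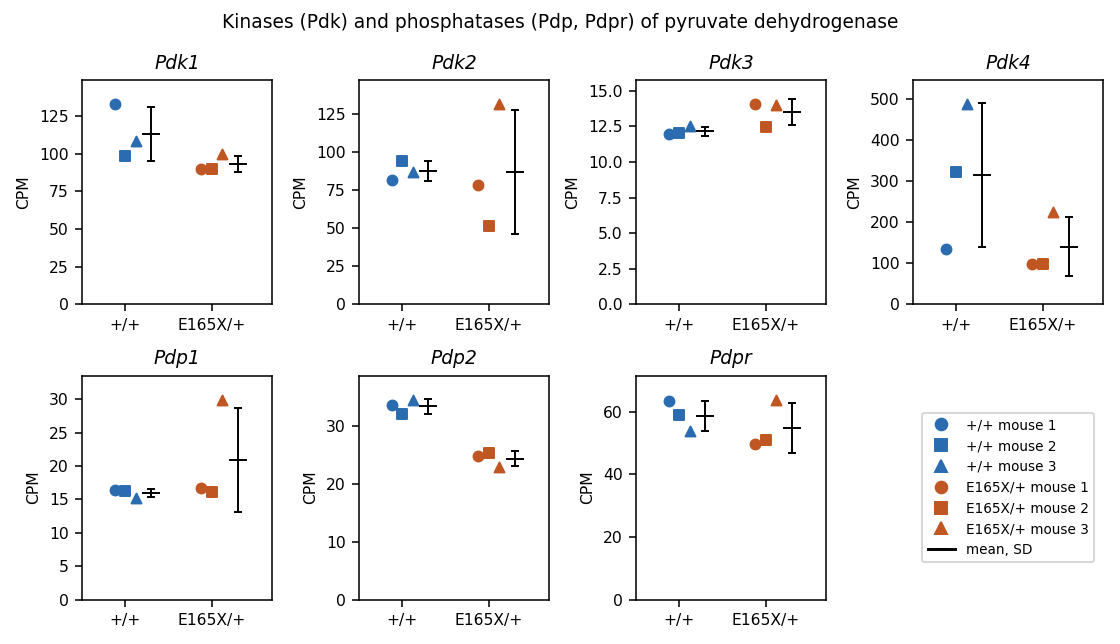
CPM (y axes, from 0) of the 4 kinases and 3 phosphatase genes of pyruvate dehydrogenase in each mouse, by genotype (x axes), with the mean and SD of 3 mice beside the points. *Pdp2* separates the genotypes, whereas *Pdk2* and *Pdp1* are high in Ebf2 E165X/+ mouse 3 and *Pdk4* is low in Ebf2+/+ mouse 1.

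*Cs*, citrate synthase, which condenses acetyl-CoA with oxaloacetate, was at 769, 665, and 641 against 485, 484, and 618 CPM (−0.39, SE 0.146). The genotypes did not overlap, and Ebf2 E165X/+ mouse 3 was closer to the Ebf2+/+ mice than to its own group. All 15 cycle enzymes had negative log2 fold changes, from −0.52 to −0.21, and in all 15 Ebf2 E165X/+ mice 1 and 2 were below every Ebf2+/+ mouse, against 10.5% of all genes. With mouse 3 included, 7 of the 15 were separated, against 5.75% of all genes. Mouse 3 had the highest level of its genotype in 14 of the 15, and leaving out a mouse cannot lower such a count.

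The NAD-linked isocitrate dehydrogenase is built from the catalytic subunit encoded by *Idh3a* and the subunits encoded by *Idh3b* and *Idh3g*. *Idh3b* was at 278, 255, and 232 against 169, 164.8, and 209 CPM. The genotypes did not overlap (−0.49, SE 0.124, DESeq2 adjusted *P* = 0.0197). *Idh3g* was at 182, 188, and 162 against 125, 123, and 156 CPM (−0.40, SE 0.119), again without overlap. *Idh3a* was at 328, 284, and 267 against 186, 167, and 291 CPM, so that mouse 3 of the heterozygotes reached the Ebf2+/+ levels (−0.45, SE 0.21). The ratio of *Idh3a* to *Idh3b* on the log2 scale was 0.14 and 0.02 in Ebf2 E165X/+ mice 1 and 2 and 0.47 in mouse 3, against 0.20 ± 0.04 in Ebf2+/+ mice (SD, n = 3). It was thus below all Ebf2+/+ mice in mice 1 and 2 and above all of them in mouse 3. The log2 fold change of *Idh3a* was −0.73 without mouse 3 and −0.30 without mouse 2 of that genotype.

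The 2-oxoglutarate dehydrogenase complex is composed of the products of *Ogdh*, *Dlst*, and the shared *Dld*. *Dlst*, the succinyltransferase core, was at 326, 303, and 283 against 215, 209, and 252 CPM, without overlap (−0.43, SE 0.111, DESeq2 adjusted *P* = 0.0199). *Ogdh*, which decarboxylates 2-oxoglutarate, was at 525, 516, and 445 against 358, 328, and 478 CPM, with Ebf2 E165X/+ mouse 3 above Ebf2+/+ mouse 3 (−0.35, SE 0.162), and its log2 fold change was −0.53 without that Ebf2 E165X/+ mouse and −0.25 without mouse 2 of that genotype.

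Succinyl-CoA ligase pairs the subunit encoded by *Suclg1* with that of *Sucla2*, which makes ATP, or that of *Suclg2*, which makes GTP. *Suclg1* was at 127, 146, and 115 against 84.6, 81.1, and 118 CPM (−0.45, SE 0.16). *Sucla2* was at 238, 272, and 238 against 142, 136.0, and 246 CPM (−0.52, SE 0.225). *Suclg2* was at 101, 105, and 89.4 against 86.5, 87.6, and 81.6 CPM (−0.21, SE 0.0833). Ebf2 E165X/+ mouse 3 was within the Ebf2+/+ range for *Suclg1* and *Sucla2* but was the lowest of all mice for *Suclg2*. Without mouse 3 the log2 fold change was −0.85 for *Sucla2* (edgeR adjusted *P* = 0.0851) and −0.18 for *Suclg2* (edgeR adjusted *P* = 0.861). Without Ebf2 E165X/+ mouse 2 it was −0.36 for *Sucla2*. The log2 ratio of *Sucla2* to *Suclg2* was 1.23, 1.38, and 1.41 in Ebf2+/+ mice and 0.71, 0.63, and 1.59 in Ebf2 E165X/+ mice. Ebf2 E165X/+ mice 1 and 2 thus had a lower ratio, and mouse 3 a higher ratio, than any Ebf2+/+ mouse. *Sucla2* (chr14:73525319-73596142 in GRCm38, a span that begins upstream of the start site shown above) and *Pdhb* (chr14:8165996-8173025) lie on the chromosome of *Ebf2* (chr14:67233292-67430918). Whether alleles linked to the edited locus bear on their counts was not tested.

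Succinate dehydrogenase, which is also complex II of the respiratory chain, has 4 subunit genes, all with a negative log2 fold change. edgeR called none of them and DESeq2 called *Sdha*. *Sdha*, which binds FAD, was at 833, 814, and 674 against 532, 517, and 594 CPM, with no overlap (−0.50, SE 0.133, DESeq2 adjusted *P* = 0.00601). *Sdhb*, which carries iron-sulfur clusters, was at 164, 159, and 132 against 105, 93, and 136.4 CPM (−0.44, SE 0.154). *Sdhc* and *Sdhd* encode the membrane anchor. *Sdhc* was at 171 ± 19.4 against 139 ± 22 CPM (SD, n = 3 each; −0.30, SE 0.136). *Sdhd* was at 166 ± 20.6 against 125 ± 16.2 CPM (SD, n = 3 each; −0.41, SE 0.127). *Sdha* and *Sdhd* were separated between the genotypes, and in *Sdhb* and *Sdhc* Ebf2 E165X/+ mouse 3 lay above Ebf2+/+ mouse 3.

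*Fh1*, fumarase, was at 161, 157, and 130.1 against 107, 100.2, and 132 CPM (−0.40, SE 0.131). *Mdh2*, the mitochondrial malate dehydrogenase that closes the cycle, was at 316, 301, and 239 against 210.0, 197, and 309 CPM (−0.26, SE 0.193). Ebf2 E165X/+ mouse 3 overlapped with the Ebf2+/+ mice in both. Without it, the log2 fold changes were −0.53 and −0.49, and without Ebf2 E165X/+ mouse 2 they were −0.32 and −0.14.

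The enzymes that make mitochondrial NADPH were mixed in direction. *Idh2*, the NADP-linked isocitrate dehydrogenase, was at 101, 112, and 97.7 against 81.3, 84.1, and 106.4 CPM (−0.19, SE 0.118), and without Ebf2 E165X/+ mouse 3 its log2 fold change was −0.32 and without mouse 1 of that genotype it was −0.12. *Me3*, a mitochondrial malic enzyme, was low in 5 mice and high in 1, at 1.56, 4.31, and 3.02 against 1.66, 1.1, and 16.4 CPM (1.10, SE 0.961). In Ebf2 E165X/+ mouse 3 it was at 11.9 times the mean of the other 2, and without that mouse its log2 fold change was −1.10 (edgeR adjusted *P* = 0.861).

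*Nnt*, the transhydrogenase that reduces NADP with NADH and the proton gradient, is known to be mutated by a deletion in C57BL/6J mice. Its 2 entries, ENSMUSG00000025453 (chr13:119335448-119408997, minus strand) and ENSMUSG00000116207 (chr13:119335528-119408952, minus strand, GRCm38), overlap, and all 3339 exonic bases of the latter are exonic in the former, so that the division of reads between them is an estimate. The former was at 11.4, 7.81, and 8.84 against 13.3, 7.82, and 10.6 CPM (0.18, SE 0.221, edgeR adjusted *P* = 0.831; −0.02 to 0.35 with single mice left out). The latter was at 6.1, 8.16, and 7.46 against 6.05, 11.7, and 15.6 CPM (0.62, SE 0.315; 0.30 without Ebf2 E165X/+ mouse 3). Summed, which was chosen after the data were seen, they were at 17.5, 16, and 16.3 CPM in Ebf2+/+ mice and at 19.3, 19.6, and 26.3 CPM in Ebf2 E165X/+ mice (0.39, SE 0.133, edgeR adjusted *P* = 0.783). The sum was higher in every Ebf2 E165X/+ mouse than in any Ebf2+/+ mouse, as in 5.09% of all genes. Its log2 fold change was positive, whereas 28 of the 33 rows had a negative one. The share of the second entry ran from 31.3% to 60.0% over the 6 mice. Which *Nnt* allele each mouse carried cannot be read from the counts.

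**Figure D4:**
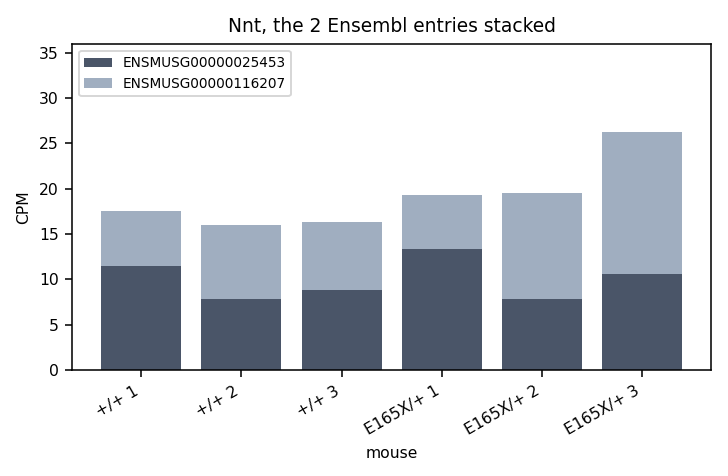
CPM of the 2 Ensembl entries of *Nnt* in each mouse (x axis), stacked from 0 (y axis). The summed bars are higher in the 3 Ebf2 E165X/+ mice, at 19.3 to 26.3 CPM, than in the 3 Ebf2+/+ mice, at 16 to 17.5 CPM, and the division between the entries differs from mouse to mouse.

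Other genes of the pathway were examined as lists, in which the edgeR adjusted *P* of the genes named was 0.783 where none is given. Of 12 other cycle and anaplerotic genes with counts, 10 were lower and 2 higher, with a median log2 fold change of −0.11, and 2 were lower at an unadjusted edgeR *P* below 0.05, against 3.09% of all genes. That count was 0 without Ebf2 E165X/+ mouse 3, against 3.54%, and without Ebf2+/+ mouse 1 it was also 0, against 2.24%. *Pcx*, pyruvate carboxylase, which makes oxaloacetate from pyruvate, was at 1665, 979, and 1045 against 838, 907, and 598 CPM (−0.65, SE 0.253). Here Ebf2 E165X/+ mouse 3 was the lowest and Ebf2+/+ mouse 1 again the highest, and without the latter the log2 fold change was −0.39. *Lipt1*, a lipoyltransferase that the dehydrogenase complexes need, had a log2 fold change of −0.41 (SE 0.167). The highest log2 fold change of the list, 0.46, was that of *Ogdhl* (SE 0.309), and it was 0.22 without Ebf2+/+ mouse 1.

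Of 9 cytosolic counterparts and genes of citrate export, 8 were lower, with a median of −0.38, and 2 were lower at an unadjusted *P* below 0.05, against 3.09% of all genes. Without Ebf2+/+ mouse 1 that count was 0, against 2.24%. Leaving out Ebf2 E165X/+ mouse 3 gave 2, against 3.54%, with *Aco1* again among them but not *Acly*. *Acly*, which cleaves exported citrate to acetyl-CoA, was at 3689.5, 949.8, and 1433 against 543, 1119, and 846 CPM (−1.28, SE 0.507). Its level in Ebf2+/+ mouse 1 was far above all others, and without that mouse the log2 fold change was −0.53. *Aco1*, the cytosolic aconitase, was at 316, 303, and 268 against 247, 248, and 187 CPM (−0.38, SE 0.136). Without Ebf2 E165X/+ mouse 3 its log2 fold change was −0.26.

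Of 14 glycolytic genes 7 were lower and 7 higher, with a median of 0.02, and without Ebf2 E165X/+ mouse 3 the median was −0.36. *Pgam1*, phosphoglycerate mutase, and *Pfkl*, the liver-type phosphofructokinase, were lower at an unadjusted *P* below 0.05, with log2 fold changes of −0.43 and −0.47 (edgeR adjusted *P* = 0.783 for both). These 2 of 14 stand against 3.09% of all genes. Leaving out Ebf2 E165X/+ mouse 3 gave a count of 6, against 3.54%, with neither *Pgam1* nor *Pfkl* among them. Without Ebf2+/+ mouse 1 the count was 1, against 2.24%. The log2 fold changes of *Pgam1* and *Pfkl* were then −0.28 and −0.27. *Pfkm*, the muscle-type phosphofructokinase, was at 63.1, 132, and 77.3 against 66.6, 39.4, and 723 CPM (1.61, SE 0.998), and without Ebf2 E165X/+ mouse 3 its log2 fold change was −0.78. All 24 nuclear subunit genes listed for respiratory complexes I, III, and IV, a selection of such genes, were lower, with a median of −0.38. Of these, 15 were lower at an unadjusted *P* below 0.05, against 3.09% of all genes. That count was 24 without Ebf2 E165X/+ mouse 3, against 3.54%, and without Ebf2+/+ mouse 1 it was 9, against 2.24%. They ran from *Cox8a*, at −0.64 (SE 0.134, edgeR adjusted *P* = 0.581), to *Ndufs8*, at −0.26 (SE 0.136; −0.42 without Ebf2 E165X/+ mouse 3). *Cox6a1*, a subunit of complex IV, was at 212, 212, and 179 against 141, 128, and 118 CPM (−0.64, SE 0.108, edgeR adjusted *P* = 0.377). *Ndufb8*, *Ndufa10*, and *Ndufv1* of complex I and *Cox6b1* of complex IV, the other 4 genes with the smallest *P* of the list, had log2 fold changes of −0.52, −0.46, −0.49, and −0.50 (SE 0.12, 0.119, 0.131, and 0.119), with an edgeR adjusted *P* of 0.737 for *Ndufb8*. edgeR called 0 genes of the list, whereas DESeq2 called 7 as lower (against 1.07% of the genes to which it gave an adjusted *P*), namely *Cox8a*, *Cox6a1*, *Cox6b1*, *Ndufb8*, *Ndufa10*, *Ndufv1*, and *Cox4i1* of complex IV (−0.43), with an adjusted *P* from 4.11e-05 for *Cox6a1* to 0.0487 for *Ndufv1*. In *Cox8a* and *Cox6a1* Ebf2 E165X/+ mouse 3 was the lowest of all mice, unlike in most members.

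Marker genes of the cell types that the tissue can hold were read beside these values. All 8 adipocyte markers were detected, with summed levels of 11566, 12350.0, and 9788 CPM in Ebf2+/+ mice and 10523, 9018, and 6814 CPM in Ebf2 E165X/+ mice. *Fabp4*, a fatty acid binding protein, was the most abundant, 8 of 8 had a negative log2 fold change, with a median of −0.28, and 0 had an unadjusted edgeR *P* below 0.05. The median was −0.17 without Ebf2 E165X/+ mouse 3, and the log2 fold change of *Cidec*, a lipid droplet protein, then went from −0.15 to 0.05. In bulk tissue, fewer adipocytes and less of these transcripts per adipocyte cannot be told apart. The 8 brown and beige adipocyte markers summed to 166, 221, and 215 against 41, 46.4, and 89.2 CPM. *Cidea*, a lipid droplet protein and the most abundant of them, was at 82.4, 103, and 105.8 against 7.97, 9.61, and 13.2 CPM (−3.24, SE 0.202, edgeR adjusted *P* = 0.00462). *Ucp1*, the uncoupling protein of brown and beige adipocytes, was at 10.8, 21.3, and 33 against 0.259, 0.264, and 0.617 CPM (−5.83, SE 0.554, edgeR adjusted *P* = 0.0596). All 8 were lower, and 5 of them (*Cidea*, *Ucp1*, *Otop1*, *Dio2*, and *Cox8b*) had an unadjusted *P* below 0.05, against 3.09% of all genes lower, of which DESeq2 called *Cidea*, *Ucp1*, and *Otop1*. *Ppargc1a*, a coactivator that induces mitochondrial genes, was at 9.53, 13.1, and 13.2 against 9.28, 9.31, and 14.7 CPM (−0.11, SE 0.218, edgeR adjusted *P* = 0.913; −0.36 to 0.01 with single mice left out). The part of brown and beige adipocytes in the levels of the members was not tested.

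Skeletal muscle markers stood apart in the mouse that stood apart in the cycle. The 14 markers summed to 2207, 8961, and 3444 CPM in Ebf2+/+ mice and to 3756, 908, and 52341 CPM in Ebf2 E165X/+ mice. They took 4.96% of all counts of Ebf2 E165X/+ mouse 3 and 0.0966% to 0.884% of those of the others. *Myh4*, a fast myosin heavy chain and the most abundant by summed level, was at 479, 2354, and 863 against 805, 193, and 11439.5 CPM, and *Acta1*, skeletal muscle actin, was at 476, 1713, and 692 against 871, 182, and 11529 CPM. No marker of the list was at 0 in any library. All 14 were higher with all mice (median log2 fold change 1.94, 0 of them with an unadjusted edgeR *P* below 0.05), and without Ebf2 E165X/+ mouse 3 the median was −1.05. Among the Ebf2+/+ mice, mouse 2 had the most of these markers and mouse 1 the least. The part of muscle in the levels of the members was not tested. Without Ebf2 E165X/+ mouse 3, the log2 fold changes of the 4 members called by DESeq2 were −0.41 for *Pdp2*, −0.56 for *Sdha*, −0.61 for *Idh3b*, and −0.52 for *Dlst* (edgeR adjusted *P* = 0.231, 0.528, 0.231, and 0.287).

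**Figure D5:**
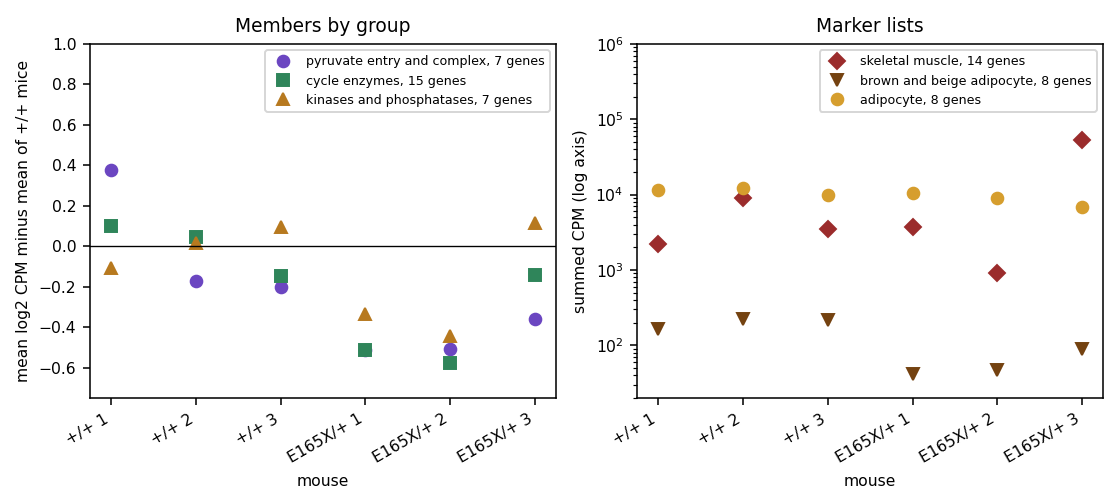
Left, mean over the genes of a group of the log2 CPM minus its mean in Ebf2+/+ mice (y axis) in each mouse (x axis), for pyruvate entry and the pyruvate dehydrogenase complex, the cycle enzymes, and the kinases and phosphatases; right, summed CPM of 3 marker lists (y axis, log scale) in the same mice. The cycle enzymes are at −0.51 and −0.58 in Ebf2 E165X/+ mice 1 and 2 and at −0.14 in mouse 3, where the muscle markers reach 52341 CPM.

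The groups of members therefore differed from mouse to mouse in different ways. Pyruvate entry and the pyruvate dehydrogenase complex had mean log2 levels, relative to the mean of the Ebf2+/+ mice, of 0.38, −0.17, and −0.20 in Ebf2+/+ mice and of −0.51, −0.51, and −0.36 in Ebf2 E165X/+ mice. The cycle enzymes were at 0.10, 0.05, and −0.15 against −0.51, −0.58, and −0.14. Ebf2 E165X/+ mouse 3 was thus below all Ebf2+/+ mice in the first group and level with Ebf2+/+ mouse 3 in the second. The kinases and phosphatases were at −0.11, 0.01, and 0.09 against −0.34, −0.45, and 0.11, where mouse 3 of Ebf2 E165X/+ was the highest of all. Whether the groups of members differed from each other in their response to the genotype was not tested.

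The remaining marker lists were read in the same way. The 7 markers of adipocyte progenitors and fibroblasts summed to between 12581 and 17582 CPM, with *Col3a1* the most abundant, and the 5 of macrophages to between 1184 and 1566 CPM, with *Lyz2* the most abundant. The 4 endothelial markers summed to between 744 and 1047 CPM, with *Pecam1* the most abundant and the lowest sum in Ebf2 E165X/+ mouse 3. The 4 B cell markers (most abundant *Ms4a1*) summed to between 251 and 480.4 CPM and the 4 T cell markers (*Cd3g*) to between 93.3 and 143 CPM, both lowest in Ebf2+/+ mouse 1. The B cell sums were higher in every Ebf2 E165X/+ mouse, by a narrow margin (420.1 CPM or more against 410.3 CPM or less). The 5 erythroid markers (*Hbb-bs*) ran from 2002 to 4550.1 CPM, and the 5 epithelial markers (*Krt5*) from 1.55 to 69.5 CPM. In these 7 lists 0 genes had an unadjusted edgeR *P* below 0.05. The 5 cardiac muscle markers were at or below 3.62 CPM in sum in 5 mice and at 19 CPM in Ebf2 E165X/+ mouse 3, in which *Myh6*, the most abundant of them, was at 14.3 CPM, against 0.424 and 1.17 CPM in the other Ebf2 E165X/+ mice and at most 0.218 CPM in Ebf2+/+ mice. *Myh6* and *Myl7* were higher at an unadjusted edgeR *P* below 0.05, against 1.68% of all genes, of which DESeq2 called *Myh6* (adjusted *P* = 0.0227) and *Myh6* alone was so without Ebf2 E165X/+ mouse 3, and *Nppa* was at 0 in 3 libraries. *Lars2*, the only gene of a list related to ribosomal RNA that the table held, was at 1609 CPM in Ebf2+/+ mouse 3 and at 150.0 to 302 CPM in the others. It was lower at an unadjusted edgeR *P* below 0.05, and every Ebf2 E165X/+ mouse was below every Ebf2+/+ mouse, by a narrow margin (log2 fold change −1.59, SE 0.672, DESeq2 adjusted *P* = 0.684). Without Ebf2+/+ mouse 3 its log2 fold change was −0.32. Without that mouse the median log2 fold change of the members was −0.49 and 20 of them were lower at an unadjusted *P* below 0.05, against 3.39% of all genes.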

How the data were processed

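IWAT of 3 Ebf2+/+ and 3 Ebf2 E165X/+ mice was profiled by bulk RNA-seq, with groups and replicate numbers taken from the sample titles. The authors deposited expected counts per gene, unscaled estimates of the number of sequenced fragments. All values were whole numbers, so that rounding changed none. The submitters' processing notes name cutadapt 4.8, FastQC 0.11.8, STAR 2.7.8a, RSEM 1.3.3, MultiQC 1.20, and the build GRCm38. The study's supplement describes 3′ mRNA libraries, whereas the sample labels name another maker's kit, so that levels are compared between mice. The most abundant gene of a list is named by CPM, not per length.

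Rows with 1 count or more were normalized by TMM and compared with edgeR 4.0.16 (glmQLFit and glmQLFTest, genotype as the only term) in R 4.3.3. *P* values were adjusted over all 32664 genes by the Benjamini-Hochberg method, with a call at an adjusted *P* under 0.05. Mean log2 levels used a prior count of 2. Alternatives were DESeq2 1.42.0, limma-voom (limma 3.58.1), DESeq2 size factors in edgeR, filterByExpr, at least 10 counts in every library, mitochondrially encoded genes left out, a linear fold change above 1.5, a replicate block, and each mouse left out in turn; summing the *Nnt* entries was added after the data were seen. On simulated counts the tests called most of the genes given a known change. That change was larger than the log2 fold change of any member with all mice. How often the tests call changes of the members' size was not examined. The share of the tests' calls that were false exceeded the threshold, most in DESeq2 and least in limma-voom.

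The members and lists were chosen with earlier results of these data known. A gene of the pathway lists is not reported here. All members are named; of the other lists, genes with an unadjusted *P* below 0.05 (at most 6 per list, by *P*), the ends of a range, and of each marker list the most abundant gene. *Acta1*, the ratios between members, and the choice of which leave-one-out values are given were added after values were seen. Gene coordinates are those of GENCODE M21, and promoters those of RefSeq in GRCm38.p6. Each SE holds counting error and the variation among 3 mice per genotype together, and they were not separated.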

Additional observations from a re-analysis of the deposited data

How the results depend on the processing

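The direction of each member's fold change was kept in 425 of 430 values over the alternatives. The 5 exceptions were fits with a mouse left out: *Pdk2* ranged from −0.44 to 0.26, with positive values of 0.04, 0.06, and 0.26 without Ebf2+/+ mouse 2 and without Ebf2 E165X/+ mouse 1 or 2, *Nnt* (ENSMUSG00000025453) from −0.021 without Ebf2 E165X/+ mouse 1 to 0.35, and *Me3* from −1.10 to 1.60. DESeq2 called 189 genes in place of edgeR's 3, and 4 members in place of 0; at an unadjusted *P* below 0.05 it had 1 member higher and 23 lower, against 1.61% and 3.24% of all genes. With the *Nnt* entries summed, 1 member was higher at that *P*, against 1.68% of all genes. With mice left out in turn, genes called ranged from 1 to 11, members lower at that *P* from 8 to 28 (all genes 2.24% to 3.54%), members higher from 0 to 1 (1.02% to 2.98%), members separated between the genotypes from 15 to 28 (all genes 9.14% to 10.5%; leaving out a mouse cannot lower this count), and the median log2 fold change from −0.51 to −0.32. The other alternatives, limma-voom, DESeq2 size factors, both filters and mitochondrially encoded genes left out, gave 17 to 22 members lower (against 3.3% to 5.07% of the genes they tested), medians of −0.42 to −0.40, and 0 members called, and a linear fold change above 1.5 left the 3 genes and 0 members. The cause of these differences was not tested. Replicate numbers are shared by the labels of the genotypes but name no litter or batch, and deviations of same-numbered mice correlated at 0.153, −0.278, and −0.162 over 18905 genes, so that they were taken not to pair the mice. With a replicate block edgeR called 2 genes in place of 3, 0 members, and 17 members lower at an unadjusted *P* below 0.05 (against 2.53% of all genes), with a median of −0.41.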
